A study of Arabidopsis thaliana with 20 samples.

Results

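The genes described here are 86 Arabidopsis thaliana genes whose annotated name, as used here, is only a locus code. Such a gene can still have another name as a synonym, as AT3G21670 (NPF6.4) does. All 86 genes were higher at day 1 than at day 0 of synchronised flower formation. They were chosen from 15555 locus-named genes among 17198 named genes on the arrays. The choice required a mean log10 ratio of day 1 over day 0 of at least 0.2 (1.58-fold), a value above 0 on all 4 arrays of that interval, and no value at the limits of the scale (2 and -2) on any of the 20 arrays. A further 10 genes were set aside by name. Of the 14518 locus-named genes that could have been chosen, 1428 were above 0 on all 4 arrays and 86 also reached the mean, which is 0.592%. The day 0 to day 1 values therefore chose the genes and are given below as a description, with no test.

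APETALA1 (AP1) is a MADS-domain transcription factor that directs young meristems on the flank of the shoot tip to become flowers, and CAULIFLOWER (CAL) is its close relative. Plants lacking both do not complete this switch, and meristem after meristem piles up into a cauliflower-like head. AP1 fused to the hormone-binding domain of the glucocorticoid receptor (AP1-GR) stays out of the nucleus until the steroid dexamethasone is given, and then starts flowers in all these meristems at about the same time. A locus code (AT, the chromosome, G and a serial number) says where a gene lies and nothing of what it does. Most of the genes below are therefore described by their pattern alone.

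Every array used 35S:AP1-GR ap1 cal inflorescences, in which the 35S promoter, active in most plant tissues, drives the fusion protein. The tissue of days 1, 2, 3, 4 and 5 after 1 µM dexamethasone was compared with that of the day before, beginning from day 0, in 4 tissue sets that the labels call independent, with tissue of about 25 plants pooled for each time point. Each of the 5 intervals was measured on 4 arrays, 1 for each set, and the later day was labelled with Cy5 in 2 sets and with Cy3 in the other two. No array with mock-treated plants or with plants lacking AP1-GR was analysed here, so the effect of AP1 cannot be told apart from that of the treatment or of elapsed time.

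All values are ratios on the log10 scale, with the later day on top. The direction is likely, not certain, because the channel in the numerator is not given in the sources used here and was taken to be Cy5. Between 30142 and 30180 probes had a value on each array. The medians of the arrays ran from -0.00333 to 0.0120 and their interquartile ranges from 0.0986 to 0.191. The number of arrays limits the precision, and the deposited ratios hold no signal or background level. In dissected tissue, fewer cells of a type and less RNA per cell cannot be told apart.

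Among the 86 genes, 77 are protein-coding in the RefSeq gene table, 8 are pseudogenes and 1, AT4G34800, was not matched to it. Pseudogenes made up 9.30% of the 86 and 9.77% of all locus-named genes. Chromosomes 1 to 5 held 25, 9, 20, 10 and 22 of the genes. Among the synonyms of that gene table, a family name was found for 1 of them: AT3G21670 is NPF6.4, a member of the nitrate and peptide transporter family.

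The day 0 to day 1 mean had a median of 0.268 over the 86 genes (1.86-fold), with quartiles of 0.224 and 0.359 and a highest value of 0.931. In all, 11 genes had a mean of 0.5 or more, 23 lay from 0.3 to under 0.5, and 52 from 0.2 to under 0.3. Just inside the threshold were AT5G39220 at 0.204, AT3G11000 at 0.203 and AT2G02640 at 0.2002. Just outside it were AT1G06420 at 0.1996, AT4G15765 at 0.1985 and AT2G10880 at 0.197. The list has no natural gap at its lower end.

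**Figure D1:**
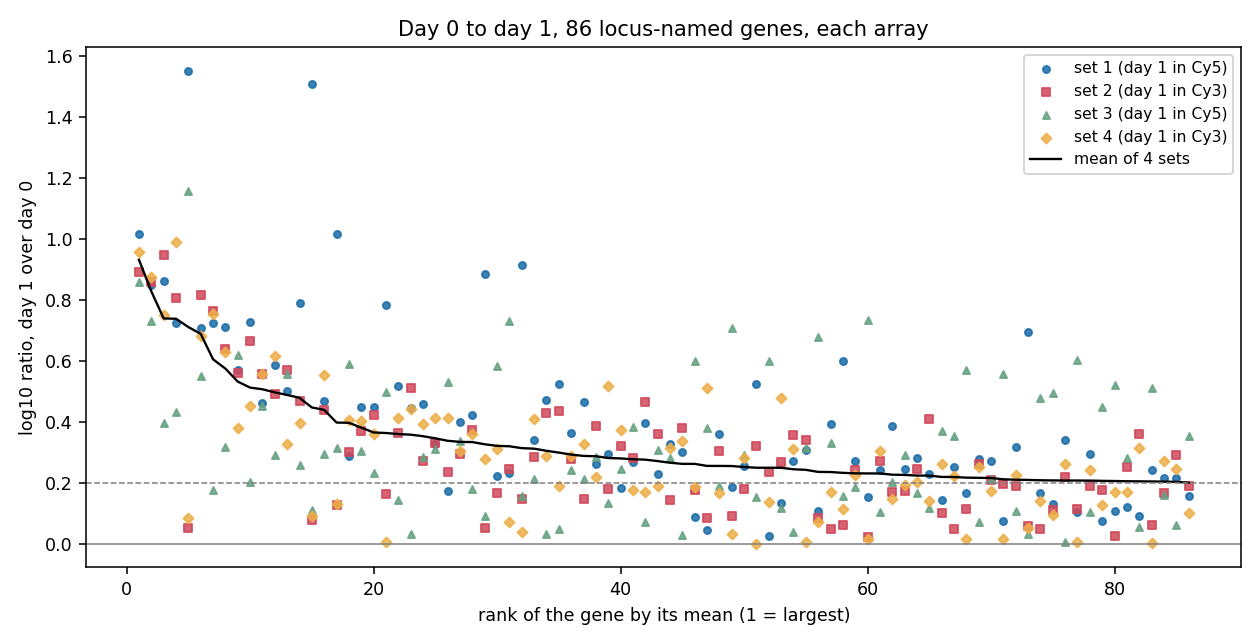
Log10 ratio of day 1 over day 0 for each of the 86 genes (vertical axis), ranked by the mean (horizontal axis), with 1 point for each tissue set and a black line for the mean; the dashed line marks 0.2. The means run smoothly between 0.931 and 0.2002, and single values between 0.00041 and 1.55 lie around them.

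The leading gene was AT5G22430, with ratios of 1.02, 0.892, 0.859 and 0.957 in sets 1 to 4 (0.931 ± 0.070, SD, n = 4; 8.53-fold). AT3G51660 followed with 0.848, 0.858, 0.731 and 0.874 (0.828 ± 0.065; 6.72-fold). These 2 genes were high in every set, and the spread between sets was small beside the rise. The labelling made little difference to them: AT5G22430 averaged 0.938 with day 1 in Cy5 and 0.925 with day 1 in Cy3, and AT3G51660 averaged 0.790 and 0.866.

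Other genes with large means were less even. AT2G42885 gave 0.862, 0.947, 0.396 and 0.750 in sets 1 to 4. AT1G47610 gave 0.723, 0.805, 0.433 and 0.991, and AT1G02610 gave 0.710, 0.640, 0.319 and 0.628. In all 3 genes the lowest value was that of set 3, as it was in 10 of the 12 genes with the largest means.

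AT5G57720 was the clearest case, with 0.725, 0.764, 0.176 and 0.754. AT4G32990 had 0.727, 0.664, 0.204 and 0.453. AT3G14060 had 0.585, 0.492, 0.293 and 0.616. More even were AT5G10970 (0.706, 0.817, 0.550 and 0.680), AT3G57720 (0.569, 0.561, 0.618 and 0.380) and AT1G62690 (0.462, 0.557, 0.451 and 0.556).

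Over all 86 genes, set 3 gave the lowest value in 39, set 4 in 22, set 2 in 17 and set 1 in 8. The highest value fell in set 1 in 34 genes, in set 3 in 25, in set 2 in 15 and in set 4 in 12. Set 3 was thus often at either end, and its array had the widest interquartile range of the 20, at 0.191. The set medians were alike, at 0.313, 0.257, 0.291 and 0.257 in sets 1 to 4. In 20 genes set 3 had both the lowest ratio of day 1 over day 0 and the highest ratio of day 2 over day 1. Both ratios share the day 1 tissue, and all features were not counted in this way, so nothing is read from the 20. The part that set 3 plays in the results was not tested, and values without it are given below.

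The genes were not equally well supported by their 4 arrays. All 4 values were at least 0.2 in 22 genes, and the SD was larger than the mean in 15. A mean of at least 0.2 with each dye assignment was found in 43 of the 86, while 15 had a mean under 0.1 with 1 of the 2 assignments. The median absolute difference between the assignments was 0.115 in these genes and 0.0827 in all features.

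The pseudogene AT3G30620 showed the widest spread, with 1.55, 0.0531, 1.16 and 0.0833 in sets 1 to 4. Its 2 high values were those with day 1 in Cy5, where the mean was 1.35, against 0.0682 with day 1 in Cy3. AT1G16230, singled out after its values were seen, had 1.51 in set 1 and between 0.0766 and 0.110 in the other sets. Of the 8 pseudogenes, whose means ranged from 0.204 to 0.710, 5 had an SD above the mean. The part of the dye in these rises was not tested.

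From day 1 on, the 86 genes parted. Their levels at day 5 relative to day 1 had a median of -0.0031, against -0.0041 for all features. At day 5, 42 genes stood above their day 1 level. A further split at 50% of the day 1 rise put 62 genes at or above it, 17 below it but above the day 0 level, and 7 at or below the day 0 level. The median share of the day 1 rise still present at day 5 was 99.0%. This share and the split at 50% contain the day 0 to day 1 values that chose the genes, and nothing is read from them.

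The highest mean level came at day 1 in 20 genes, at day 2 in 19, at day 3 in 12, at day 4 in 21 and at day 5 in 14. Day 5 over day 0 had a median of 0.309 (2.04-fold), against -0.0032 for all features. Of the 85 genes with values in all 4 sets, 50 were above day 0 at day 5 in every set, where 13.8% of all features were, and 1 was below in every set. That sum contains the values that chose the genes, and nothing is read from it.

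**Figure D2:**
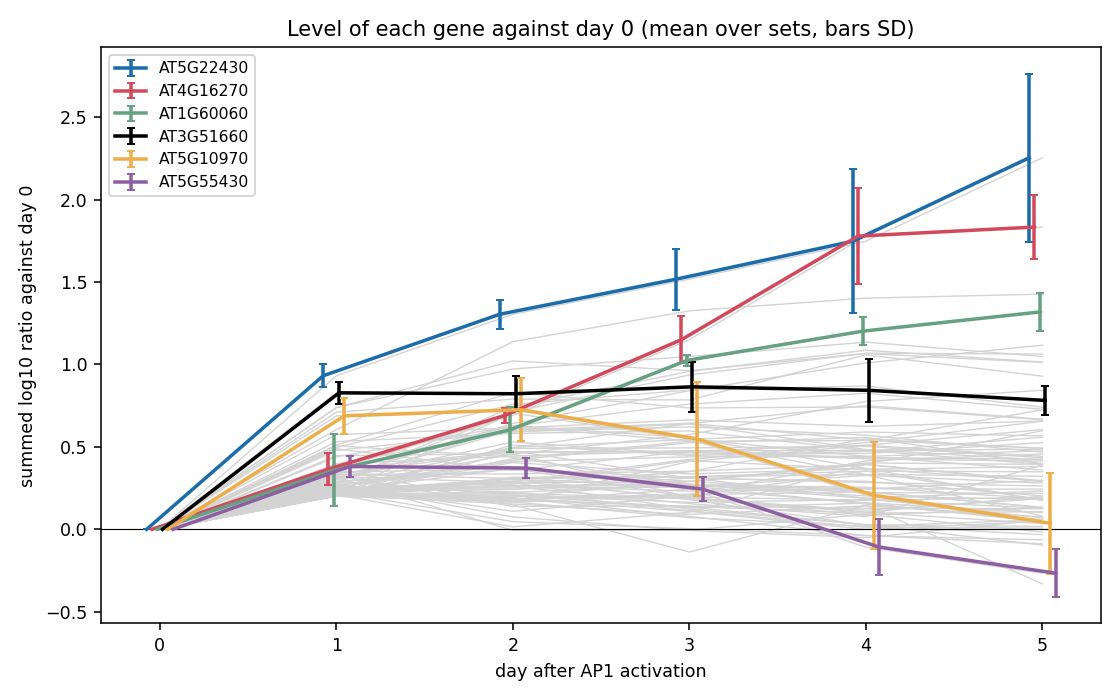
Summed log10 ratio against day 0 (vertical axis) at days 0 to 5 after AP1 activation (horizontal axis), as the mean over tissue sets; grey lines are the 86 genes, and 6 are coloured with bars for the SD over 4 sets. AT5G22430 reached 2.25 and AT4G16270 1.83 at day 5, AT3G51660 was at 0.782, AT5G10970 came back to 0.0365 and AT5G55430 ended at -0.266.

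Between day 1 and day 2, 10 of the 86 genes rose and 1 fell in limma's test with Benjamini-Hochberg adjustment over 28634 features at a threshold of 0.05. That is 12.8% of the genes, against 1.15% of all features. Rises alone made 11.6%, against 0.733% of all features, and the fall 1.16%, against 0.416%. The median over the 86 genes was 0.0485, against -0.0018 for all features, and 33 genes (38.4%) were above 0 in all 4 sets, against 7.67% of features. Below 0 in all 4 sets were 6 genes (6.98%), against 8.29% of features. These arrays share the day 1 tissue with those that chose the genes, so the 2 intervals are not independent.

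AT5G57720 rose most, with 0.604, 0.463, 0.738 and 0.326 in sets 1 to 4 (0.533 ± 0.178, SD, n = 4; 3.41-fold; limma adjusted p = 0.00113). The set with its weakest first rise, set 3, had the strongest second one. Day 2 over day 0 came to 1.14 ± 0.18.

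AT3G29690 had 0.294, 0.477, 0.501 and 0.574 (2.89-fold; limma adjusted p = 0.00115). AT1G13230 had 0.561, 0.447, 0.296 and 0.421 (2.70-fold; limma adjusted p = 3.76e-04). Their means were larger on the second day, at 0.462 ± 0.119 and 0.431 ± 0.109, than on the first, at 0.281 ± 0.171 and 0.280 ± 0.084 (SD, n = 4). That difference between the first 2 intervals was not tested.

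AT4G24130 added 0.400, 0.344, 0.240 and 0.336 (2.14-fold; limma adjusted p = 0.00397). AT5G39220, close to the threshold on the first day, added 0.275, 0.288, 0.306 and 0.179 (1.83-fold; limma adjusted p = 7.61e-04). AT1G22460 added 0.404, 0.271, 0.374 and 0.0285 (1.86-fold; limma adjusted p = 0.0368). In AT4G24130 and AT5G39220 every set gained, by 0.179 or more, whereas AT1G22460 was near 0 in set 4.

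AT3G01490 (2.00-fold; limma adjusted p = 0.0242), AT3G14060 (1.83-fold; 0.0315), AT4G34800 (1.76-fold; 0.0271) and the pseudogene AT5G32486 (1.57-fold; 0.0334) also rose. With tissue set as a replicate block these 4 did not pass, at adjusted p = 0.0652, 0.0762, 0.0701 and 0.0684. NPF6.4, with 0.396, 0.466, 0.0711 and 0.171 for day 0 to day 1, had 0.177, 0.373, 0.136 and 0.196 for day 1 to day 2 (1.66-fold). It was above 0 in every set and missed the threshold (limma adjusted p = 0.0974).

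The fall was that of AT1G64405, with -0.312, -0.162, -0.115 and -0.220 in sets 1 to 4 (1.59-fold lower; limma adjusted p = 0.0100). It had been 0.268, 0.283, 0.382 and 0.175 on the first day. At day 5 the gene stood at 0.0579 ± 0.1692 against day 0.

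The calls for day 1 to day 2 depended on the sets. In limma, 6 of the 86 genes passed without set 1, 10 without set 3 and 4 without set 4. Without set 2 the count was 0, with 34 genes at an unadjusted p under 0.05, and the 11 genes named above had adjusted p from 0.0946 to 0.274. Here and below, counts under changed settings or at an unadjusted p are given without the share of all features. Whether such losses are particular to these genes was not tested.

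Of the tissue markers with a probe, SWEET11, a sugar transporter of the phloem and the 1 of 3 phloem genes measured, fell between day 1 and day 2. Its ratios were -0.281, -0.404, -0.575 and -0.217 in sets 1 to 4 (-0.369 ± 0.158, SD, n = 4; limma adjusted p = 0.0423). Its part in the changes of the 11 genes was not tested.

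**Figure D3:**
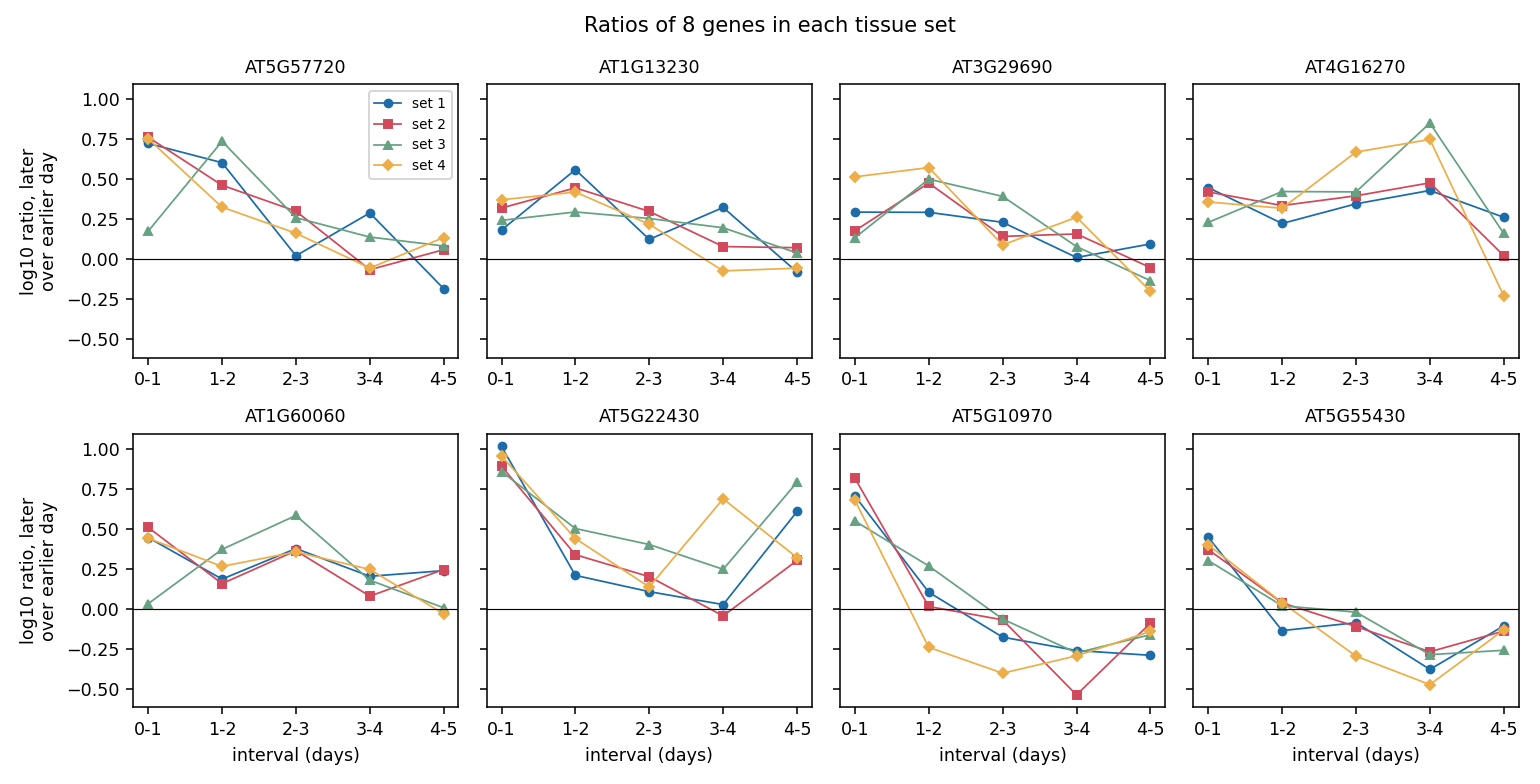
Log10 ratio of the later over the earlier day (vertical axis) in each of the 5 intervals (horizontal axis) for 8 genes, with 1 line for each tissue set. AT4G16270 was above 0 in every set up to day 4, AT5G22430 was highest in the first interval with 0.859 to 1.02, and AT5G10970 and AT5G55430 were below 0 in every set from day 3 to day 5.

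The arrays of days 2 to 5 hold neither the day 0 nor the day 1 tissue. Their limma calls, however, come from a fit to all arrays together. The first-day values that chose the genes enter the spread and the dye term of that fit. The calls and their shares against all features are therefore not fully independent of the choice. Counts of genes above or below 0 in every set do not use the fit. Between day 2 and day 3, 3 of the 86 genes rose and none fell (3.49%, against 0.419% of all features), with 21 genes at an unadjusted p under 0.05 in limma. Among all features 0.374% rose and 0.0454% fell. The median of the 86 was 0.0054. Of 85 genes with all 4 values, 11 (12.9%) were above 0 in every set and 11 below 0 in every set, against 6.75% and 6.27% of all features.

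AT4G16270 had 0.347, 0.397, 0.422 and 0.671 in sets 1 to 4 (2.88-fold; limma adjusted p = 0.0112). AT1G60060 had 0.378, 0.364, 0.585 and 0.357 (2.63-fold; limma adjusted p = 0.00842). AT1G13230 had 0.125, 0.299, 0.255 and 0.219 (1.68-fold; limma adjusted p = 0.0465), and with tissue set as a replicate block it had an adjusted p of 0.119. All 3 were above 0 in every set. Without set 3, AT4G16270 (limma adjusted p = 0.0306) and AT1G60060 (0.0118) passed, and AT1G13230 did not (0.0743). The count over the 86 was 0 without set 1, set 2 or set 4, with 19, 15 and 17 genes at an unadjusted p under 0.05 in limma.

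Between day 3 and day 4, 2 genes rose and 2 fell, which is 4.65% of the 86, against 1.35% of all features. Rises and falls made 2.33% each, against 0.981% and 0.37% of all features. In every set 9 genes were above 0 (10.5%) and 15 below 0 (17.4%), against 8.14% and 8.25% of all features.

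AT4G16270 gained 0.431, 0.478, 0.852 and 0.750 in sets 1 to 4 (0.628 ± 0.205, SD, n = 4; 4.24-fold; limma adjusted p = 3.73e-04). Its means had been 0.365 for day 0 to day 1, 0.326 for day 1 to day 2 and 0.459 for day 2 to day 3, with every set above 0 in each. AT3G23930 gained 0.212, 0.244, 0.468 and 0.245 (1.96-fold; limma adjusted p = 0.0324), after -0.195 ± 0.228 between day 1 and day 2.

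AT5G55430 had -0.378, -0.268, -0.286 and -0.473 (2.25-fold lower; limma adjusted p = 4.15e-04). AT5G10970 had -0.260, -0.538, -0.275 and -0.293 (2.19-fold lower; limma adjusted p = 0.0115). Both fell in every set, after first-day rises of 2.41-fold and 4.88-fold.

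AT4G16270 and AT5G55430 passed whichever set was left out, with limma adjusted p between 0.00735 and 0.0166 and between 0.00326 and 0.0208. AT5G10970 passed without set 4 (limma adjusted p = 0.00662) and not without set 1 (0.177), set 2 (0.268) or set 3 (0.0504). AT3G23930 did not pass with any set left out, at limma adjusted p from 0.107 to 0.237.

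In the same interval a marker of the stomatal lineage rose. MUTE, which commits cells to form stomata, was higher at day 4 than at day 3 by 0.706 (limma adjusted p = 4.24e-04). FAMA had 0.305, 0.121 and 0.651 in sets 1, 2 and 4 and stood at the upper limit of 2 in set 3, so its mean is not given. These 2 of the 3 stomatal markers listed had a probe, and their part in the rises of AT4G16270 and AT3G23930 was not tested.

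Between day 4 and day 5, AT5G22430 rose and no gene fell, which is 1.16% of the 86, against 0.758% of all features called in either direction and 0.562% called higher. Its ratios were 0.610, 0.303, 0.793 and 0.321 in sets 1 to 4 (0.507 ± 0.237, SD, n = 4; 3.21-fold; limma adjusted p = 0.0126). Sets 1 and 3, with the later day in Cy5, were the higher ones. It passed without set 4 (limma adjusted p = 0.0301) and not without set 1 (0.121), set 2 (0.0688) or set 3 (0.135). The counts over the 86 were then 0, with 11, 12 and 20 genes at an unadjusted p under 0.05. The share called is close to that of all features. Of the 86 means 57 were below 0. In every set 5 genes were above 0 (5.81%) and 10 below 0 (11.6%), against 5.48% and 6.05% of all features.

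Other tissue markers also changed between day 4 and day 5. The photosynthesis gene RCA was higher by 0.197 (limma adjusted p = 0.0244), MUTE by 0.489 (0.0149) and the stress-linked WRKY53 by 0.180 (0.0121). The stem cell gene CLV3 was lower, at -0.305 (limma adjusted p = 0.0297). Their part in the rise of AT5G22430 was not tested.

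Day 5 was also set against day 2 by summing the 3 ratios within each set, which keeps the day 0 and day 1 tissue out. In that comparison 2 of the 86 genes were higher and 2 lower, 4.65% against 0.835% of all features (2.33% each way, against 0.678% higher and 0.157% lower). The median was -0.0344, against -0.0053 for all features. Of 85 genes, 18 were higher in every set and 18 lower in every set, 21.2% each, where 11.5% and 11.7% of all features were. Across the 86 genes, measured in the same 4 tissue sets, the first-day mean and the day 5 over day 2 mean had a Pearson r of 0.0611, given as a description.

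AT4G16270 was higher by 1.04, 0.899, 1.44 and 1.19 in sets 1 to 4 (1.14 ± 0.23, SD, n = 4; 13.9-fold; limma adjusted p = 0.0323). AT1G60060 was higher by 0.821, 0.691, 0.772 and 0.573 (5.18-fold; limma adjusted p = 0.0317). In both genes the mean gain from day 2 to day 5 was larger than that from day 0 to day 2, which is a shorter span. The levels of the genes at day 2 were 0.691 ± 0.046 and 0.604 ± 0.136 against day 0. These levels contain the values that chose the genes, and the difference was not tested.

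AT5G10970 was lower, with -0.726, -0.694, -0.499 and -0.836 (4.88-fold lower; limma adjusted p = 0.0383). AT1G43000 had -0.523, -0.418, -0.525 and -0.347 (2.84-fold lower; limma adjusted p = 0.0440), after 0.468, 0.440, 0.295 and 0.554 on the first day. AT5G10970 was back near its day 0 level at day 5 (0.0365 ± 0.3055), and AT1G43000 was at 0.175 ± 0.103. AT5G22430 had a sum of 0.949 ± 0.433 (limma adjusted p = 0.124), with 0.745, 0.462, 1.44 and 1.15 in the 4 sets. Its mean was larger than that of AT1G60060, and its spread was wider. Summed from the coefficients of the fit to all 20 arrays, the same gain of AT5G22430 had a limma adjusted p of 0.00206. Whether this gene passed thus depended on the test.

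MUTE rose in the same comparison, with 1.53, 0.976, 1.37 and 1.65 in sets 1 to 4 (1.38 ± 0.29, SD, n = 4; limma adjusted p = 0.0338). Its part in the rises of AT4G16270 and AT1G60060 was not tested.

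These calls rest on 4 sums. With any set left out, none of the 86 genes passed in limma, while 26 to 29 had an unadjusted p under 0.05. The adjusted p of the 4 genes then lay between 0.134 and 0.229.

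**Figure D4:**
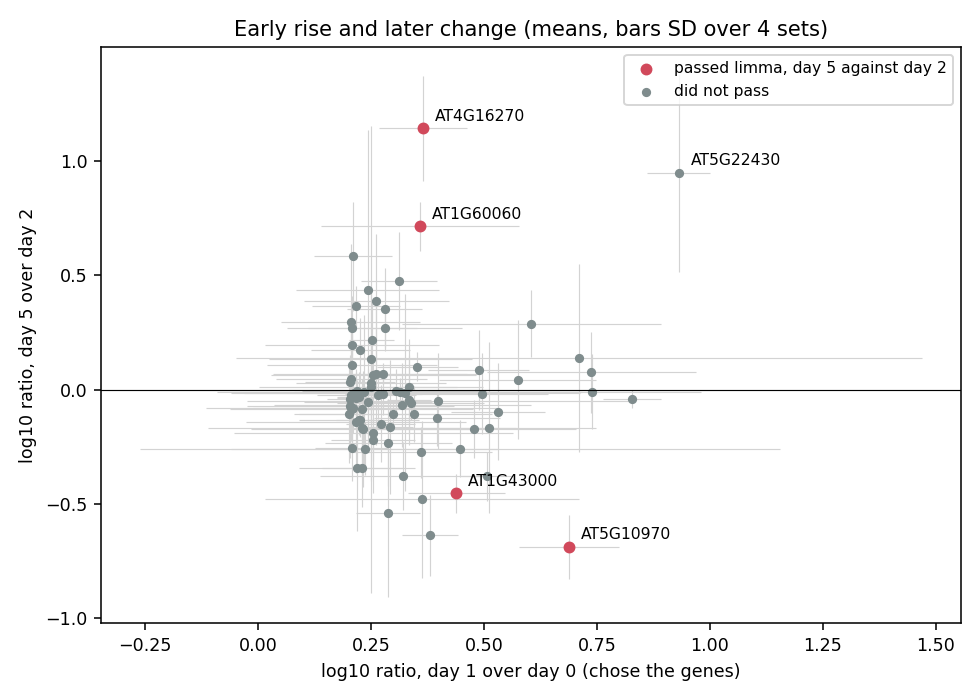
Mean log10 ratio of day 5 over day 2 (vertical axis) against that of day 1 over day 0 (horizontal axis) for the 86 genes, with bars for the SD over the 4 sets (3 for AT2G46495 on the vertical axis). Red points passed limma for day 5 against day 2: AT4G16270 and AT1G60060 were higher, AT5G10970 and AT1G43000 lower, and AT5G22430 at 0.949 did not pass.

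Day 5 against day 1 compares the end of the series with the first rise, and shares the day 1 tissue with the choice. In limma, 5 genes were higher and 1 lower, 6.98% against 1.44% of all features (5.81% higher and 1.16% lower, against 1.05% and 0.388%). Of 85 genes, 24 were above and 19 below their day 1 level in every set (28.2% and 22.4%), against 12.9% and 13% of all features.

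AT4G16270 was 29.4-fold higher (1.47 ± 0.29 on the log10 scale, SD, n = 4; limma adjusted p = 0.0248) and AT1G60060 9.12-fold (0.960 ± 0.145; 0.0198). AT4G24130 was 6.38-fold higher (0.805 ± 0.160; 0.0271), AT1G13230 6.06-fold (0.783 ± 0.190; 0.0351) and AT3G29690 5.40-fold (0.732 ± 0.085; 0.0196). The stomatal marker MUTE was also higher, by 1.63, 0.902, 1.19 and 1.71 in sets 1 to 4 (1.36 ± 0.38; limma adjusted p = 0.0394), and its part in these rises was not tested.

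AT3G29690 and AT1G13230 gained mainly up to day 3, while AT4G24130 had means above 0 in all 4 later intervals, between 0.108 and 0.330. AT5G57720 had a sum of 0.822 ± 0.279 (limma adjusted p = 0.0599) and AT5G22430 one of 1.32 ± 0.54 (limma adjusted p = 0.0816). Summed from the coefficients of the fit to all 20 arrays, they had limma adjusted p of 0.00212 and 4.2e-04, so passing depended on the test. AT3G51660, the gene with the second largest first rise, had -0.157, 0.0137, -0.0030 and -0.0380 between day 1 and day 5. Its level was 0.782 ± 0.086 at day 5 and 0.828 ± 0.065 at day 1 (limma adjusted p = 0.678 for the sum).

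The lower gene was AT5G55430, with -0.706, -0.478, -0.545 and -0.860 in sets 1 to 4 (4.44-fold lower; limma adjusted p = 0.0419). Its day 5 level was under that of day 0 in every set, by -0.256, -0.107, -0.242 and -0.459. AT1G62690 had -0.434, -0.457, -0.310 and -0.591 and just missed the threshold (limma adjusted p = 0.0510). With any set left out none of the 86 genes passed in limma, while 30 to 32 had an unadjusted p under 0.05, and the 6 genes had adjusted p from 0.0664 to 0.233.

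Besides AT5G55430, the genes at or below their day 0 level at day 5 were AT5G20460, AT1G11210, AT5G17670, AT5G11070, AT3G57810 and AT5G55440, named after their values were seen. AT5G20460 was lowest, at -0.331 ± 0.259 (SD, n = 4), and its first-day values of 0.784, 0.164, 0.499 and 0.0054 were uneven. The other 5 means lay between -0.0959 and -0.0164, each within 1 SD of 0.

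Across days 1 to 5, 18 of the 86 genes passed in at least 1 of the 6 later comparisons and 68 in none. All features were not counted in this way, so nothing is read from the 18. A gene that did not pass is not thereby shown to have stayed level. Among the 43 genes with a first-day mean of at least 0.2 under both dye assignments, a subset taken after the values were seen, 8 passed for day 1 to day 2. The calls of the other 5 comparisons all came from these 43 genes, with counts of 3, 4, 1, 4 and 6. The first-day arrays also enter the single fit behind the calls of single intervals, where uneven first-day values widen the spread. Nothing is read from where the calls fell.

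AT5G55430 and AT5G55440 lie next to each other on chromosome 5, with no gene between them in the RefSeq order. AT5G55440 had 0.293, 0.190, 0.103 and 0.243 on the first day and -0.572, -0.172, -0.135 and -0.203 between day 1 and day 5 (limma adjusted p = 0.273). The rule fixed the first-day signs of both genes. Between day 1 and day 5 AT5G55440 was below 0 in every set, as its neighbour was, without passing. The gene on the far side of AT5G55440, AT5G55450, was at -0.355 ± 0.217 on the first day (limma adjusted p = 0.0824).

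Direct neighbours of the 86 genes were measured in 78 cases, and 3 of them (3.85%) had a first-day mean of at least 0.2 with all 4 arrays above 0, where 0.773% of all named genes did. These are the pair above, counted from both sides, and AT3G09950, which stood at the upper limit in set 3. The 2 genes of the pair meet that cut by the rule that chose them, so nothing is read from the share. The neighbours had a median first-day ratio of 0.0215, against 0.0018 for all named genes.

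Of 33 known regulators of early flower formation, 12 had a named probe. Between day 0 and day 1, 3 of these rose and 4 fell, where 1.15% of all features rose and 2.17% fell. RBE, which acts in petal formation, rose by 0.515 ± 0.111 (SD, n = 4; limma adjusted p = 4.01e-05), JAG, which promotes organ growth, by 0.351 ± 0.046 (2.93e-04), and UFO, a co-regulator of floral identity genes, by 0.299 ± 0.132 (8.15e-04). FD, the partner of florigen at the shoot tip, fell, at -0.397 ± 0.093 (limma adjusted p = 1.60e-04), and the MADS-box genes AGL42, AGL71 and AGL72 also fell, at -0.259, -0.219 and -0.339.

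The first-day sizes of RBE, JAG and UFO lie inside the range of the 86 locus-named genes. UFO had 0.400, 0.368, 0.108 and 0.320 in sets 1 to 4, again with its lowest value in set 3. Between day 1 and day 2 RBE, JAG and YAB3 rose and PUCHI fell. In the later single intervals none of the 12 passed as higher. AGL71, AGL72 and UFO fell between day 3 and day 4, as did UFO and RBE between day 4 and day 5. For day 5 against day 1, YAB3 was higher, by 0.635 (limma adjusted p = 0.0196), and 3 of the 12 were lower. For day 5 against day 2 none was higher and 1 was lower.

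Markers of other tissue the dissection could hold were checked for the first day. Named probes existed for 2 of 3 green tissue genes (0.0149 and 0.0320), 2 of 3 stomatal genes (0.0507 and 0.144), 1 of 3 phloem genes (-0.0549), none of 3 xylem genes and 2 of 3 tapetum genes (-0.0170 and 0.0241). CLV3, the 1 of 4 shoot meristem genes with a probe, was at 0.124, and WRKY53, the 1 of 6 handling and heat genes, at 0.0512. None of these passed limma's test between day 0 and day 1, and most markers had no probe, so the check is a thin one.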

How the data were processed

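The authors deposited 1 column of log ratios for each of 20 two-colour arrays. Amplified RNA had been dye-coupled, per the labels' protocols. How the ratios were normalized, and their log base, is not given in the sources used here. They were taken as log10 ratios since no deposited value passes 2 or -2, a round 100-fold. Where Cy3 marked the later day the sign was turned, with Cy5 over Cy3 assumed.

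Of 30741 spots, 547 control or unannotated ones were left out. Of 30194 probes, 18740 had 1 gene name, 1 several and 11453 none. RefSeq's TAIR10.1 gene table, used for names and gene order alone, matched 18645, and 95 kept an older name. Probes of a gene were averaged; 81 of the 86 genes had 1 probe and 5 had 2. A feature needed values on 3 of 4 arrays of each interval, which kept 28634 and all 86 genes. AT2G46495 lacks 1 value, so its sums use 3 sets.

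A single limma 3.58.1 fit in R 4.3.3 took the 20 arrays together, with a coefficient for each of 5 intervals and 1 for the dye. Sums over days were tested in limma on 4 set sums (28621 features for day 5 against day 1). P-values were adjusted by Benjamini-Hochberg over all features, two-sided, at 0.05; the code was tested on simulated data. Folds are 10 raised to the mean. P-values over sets reflect separate tissue sets, per the labels. The same set numbers mark shared tissue sets, so they pair by label. Residuals of the same set in other intervals had a median correlation of -0.0494 (from -0.197 to 0.152), against 0.0315 between sets.

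Genes named are the 12 largest first-day means, up to 6 called each way in each later comparison, the 3 on each side of the threshold and adjacent members. Grouping by product was planned, but product descriptions were not used here; protein, promoter and probe sequences were not used either. The genes and lists were chosen with earlier results of these data known.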

Additional observations from a re-analysis of the deposited data

Results flagged for a closer look

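In 10 of 140 groups of 4 array values looked at for the named genes, 1 set stood far from the other 3 by Dixon's cut. Its 95% level marks about 1 in 20 groups by chance where groups are not chosen by their values. The groups here include the day 0 to day 1 values that chose the genes, and the named genes were mostly picked by size or by their calls. The cut therefore only marks values to look at, and nothing is read from the count. Set 3 was the far one in 5 cases. AT5G57720 was at 0.176 in set 3 between day 0 and day 1, with the other sets from 0.725 to 0.764. AT1G60060 was at 0.0327 in set 3 in that interval (others 0.442 to 0.510) and at 0.585 in set 3 between day 2 and day 3 (others 0.357 to 0.378). AT3G23930 was at 0.468 in set 3 between day 3 and day 4 (others 0.212 to 0.245), and AT1G22460 at 0.0182 in set 3 between day 4 and day 5 (others -0.123 to -0.110).

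The other 5 fell in sets 1, 2 and 4. AT1G02610 was at -0.304 in set 4 between day 3 and day 4, where the others were 0.0438 to 0.0529. AT1G43000 was at 0.0118 in set 4 in that interval (others -0.285 to -0.236), AT5G10970 at -0.538 in set 2 (others -0.293 to -0.260) and AT3G14060 at -0.0444 in set 2 (others 0.0417 to 0.0508). AT5G55430 was at -0.136 in set 1 between day 1 and day 2 (others 0.0197 to 0.0398).

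In 6 of the 86 genes the 4 later intervals differed from each other in limma's F test, as they did in 178 of 28634 features. The adjusted p was 0.0117 for AT5G39220, 0.0181 for AT1G13230, 0.0281 for AT3G29690, 0.0302 for AT1G64405, 0.0372 for AT1G43000 and 0.0435 for AT4G32950. AT5G39220, AT1G13230 and AT3G29690 were highest between day 1 and day 2, with 0.262, 0.431 and 0.462, and AT1G64405 was lowest there at -0.202. AT1G43000 was at 0.189 between day 1 and day 2 and at -0.194 between day 4 and day 5, and AT4G32950 at 0.154 and -0.159. The first of these intervals shares the day 1 tissue with the choice of the genes.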

How the results depend on the processing

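With tissue set as a replicate block, 7 genes passed between day 1 and day 2 in place of 11; it kept 14 of the 19 named calls of single intervals, the 5 lost ones being given with their values above. With arrays scaled to 1 spread the counts were 6 for day 1 to day 2, 1 in place of 3 for day 2 to day 3, 0 in place of 1 for day 4 to day 5 (10 at an unadjusted p under 0.05 in limma) and 1 in place of 4 for day 5 against day 2. Fitting the 4 arrays of an interval alone gave 0 in limma in each of 4 intervals, with 38, 19, 27 and 11 genes at an unadjusted p under 0.05; these fits have fewer arrays. Sums of coefficients from the fit to all 20 arrays gave 12 for day 5 against day 2 (9 with replicate block) and 12 in place of 6 for day 5 against day 1 (11 with replicate block). Leaving out 1 set gave 0 to 10 genes for day 1 to day 2, 0 to 2 for day 2 to day 3, 2 to 4 for day 3 to day 4, 0 to 1 for day 4 to day 5 and 0 for both sums, with unadjusted counts in limma above. With the other channel order 222 genes would meet the rule, and with a mean of 0.2 in each dye assignment, added after seeing the data, 43 do. Over all alternatives of the named calls, 144 kept their side of the threshold, 126 no longer passed and 0 reversed. Of those that kept it, 29 took each probe as its own feature and 19 required values on all 20 arrays, which change few values. Many alternatives leave the mean of a gene unchanged, so a reversal was hardly possible and nothing is read from its absence. Beyond the constructions with fewer sets, the cause of the losses was not tested.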
